A study of Mus musculus with 12 samples.

Results

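The loss of Regnase-1 in unstimulated natural killer (NK) cells was examined by comparing 3 knockout control libraries with 3 wild-type control libraries, 6 of the 12 ATAC-seq libraries of the series. The libraries were chosen by their labels, genotype and treatment. NK cells came from mouse spleen. Wild-type (WT) cells carried the floxed Regnase-1 allele (Reg-1fl/fl) and knockout (KO) cells lacked Regnase-1 in NK cells (Reg-1ΔNK). Both groups were left without IL-12 and IL-18. The other 6 libraries are WT and KO cells treated with these 2 cytokines (3 each), and they serve here as a readout whose peaks were not used to choose the regions. Control and stimulated libraries may share animals, which the labels do not tell. The labels do not give the Cre driver, the isolation of the NK cells, the ages, or whether the 3 libraries of a group came from separate animals. The p-values below thus reflect only how far these libraries scatter, and that scatter may be technical.

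ATAC-seq cuts accessible DNA with a transposase, so that a peak marks an open stretch of chromatin, often a promoter or an enhancer. Zc3h12a encodes Regnase-1, an RNase that cleaves transcripts of inflammatory genes, among them several cytokines, and so acts on RNA rather than on chromatin. NK cells belong to the innate lymphocytes, kill virus-infected and tumour cells and secrete interferon gamma, and IL-12 and IL-18 receptors signal in them through STAT4 and through MyD88, IRAK kinases and NF-kB. The question the comparison addresses is which open regions differ when Regnase-1 is absent and no cytokine is given.

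A region below is an interval of mm10 built from the 35110 strongest distinct peaks of each control library, and it is called in a library when 1 of that library's strongest peaks overlaps it by at least 1 bp. Of 42215 regions, 523 (1.24%) were gained, that is called in 3 of 3 KO and 0 of 3 WT control libraries, and 417 (0.988%) were lost, the reverse pattern. Another 27558 regions (65.3%) were called in all 6. Of the 14244 genes with regions, 35 had more than 1 gained region and 14 more than 1 lost region. Among the 35 were Il6, Irak3, Il12rb2, Batf, Bcl2, Cdk6, Ern1 and Ece1 with 2 gained and 0 lost each. Inpp4b, Ppfibp2, Usp6nl and Wwox had 3 each. Genes with many regions had more that could change, such as Bcl2 (20 regions), Cdk6 (19), Inpp4b and Wwox (17 each). Il6, Slc8a2 and Gtsf1l had only 2 regions each, both gained. Lost regions included 2 at Irf2 and 3 each at Ank3, Galnt10 and Zmat4. No p-value is given for these counts, because 3 libraries against 3 cannot reach an exact p under 0.1.

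The start of Il6, the gene for the inflammatory cytokine interleukin-6 and a textbook substrate of Regnase-1, was among the gained regions. It had a weaker peak in 1 WT control list. At 4 other gained gene starts the 3 WT control lists held no peak at all. The 250 bases before each of these annotated starts, which the regions cover in whole or in part, are shown, with 1 lost start, Ccrl2, beside them. Ccrl2 was picked after its values were seen and kept a weaker peak in all 3 KO control lists. None of the 20 lost starts lacked a peak in the KO control lists, and the other changed starts are not shown. The sequences come from RefSeq (GRCm38.p6, the assembly behind mm10) and read 5′ to 3′ along the gene. Capitals mark matches to 7 short motifs searched on both strands: AP-1 (TGANTCA), NF-kB (GGNNTTTCC), octamer (ATGCAAAT), RUNX (TGTGGT), STAT (TTCNNNGAA), ETS (CCGGAAGT) and T-box (AGGTGTGA). The windows lie at chr5:30012864-30013113 (plus strand) for Il6, chr11:61126505-61126754 (plus) for Tnfrsf13b, chr1:74374953-74375202 (plus) for Slc11a1, chr14:59341331-59341580 (minus) for Phf11b, chr10:18210828-18211077 (minus) for Ect2l and chr9:111057519-111057768 (minus) for Ccrl2.
Il6: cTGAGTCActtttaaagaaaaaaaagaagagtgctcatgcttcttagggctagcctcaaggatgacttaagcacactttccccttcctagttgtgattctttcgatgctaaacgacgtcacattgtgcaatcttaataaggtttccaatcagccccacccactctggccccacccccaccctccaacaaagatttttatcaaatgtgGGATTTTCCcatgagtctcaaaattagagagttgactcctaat
Tnfrsf13b: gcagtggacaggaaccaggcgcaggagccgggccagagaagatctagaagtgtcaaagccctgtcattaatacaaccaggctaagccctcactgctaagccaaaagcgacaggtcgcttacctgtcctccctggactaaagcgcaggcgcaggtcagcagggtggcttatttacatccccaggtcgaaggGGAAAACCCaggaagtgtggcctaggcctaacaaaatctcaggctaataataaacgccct
Slc11a1: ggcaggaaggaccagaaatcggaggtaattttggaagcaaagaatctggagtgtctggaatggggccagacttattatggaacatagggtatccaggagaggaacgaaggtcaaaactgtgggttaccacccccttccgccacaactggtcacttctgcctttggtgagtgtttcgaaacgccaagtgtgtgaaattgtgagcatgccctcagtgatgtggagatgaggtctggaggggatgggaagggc
Phf11b: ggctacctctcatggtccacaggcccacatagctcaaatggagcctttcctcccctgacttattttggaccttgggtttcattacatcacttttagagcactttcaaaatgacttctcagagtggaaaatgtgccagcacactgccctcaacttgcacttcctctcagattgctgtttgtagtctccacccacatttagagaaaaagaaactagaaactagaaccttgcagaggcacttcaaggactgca
Ect2l: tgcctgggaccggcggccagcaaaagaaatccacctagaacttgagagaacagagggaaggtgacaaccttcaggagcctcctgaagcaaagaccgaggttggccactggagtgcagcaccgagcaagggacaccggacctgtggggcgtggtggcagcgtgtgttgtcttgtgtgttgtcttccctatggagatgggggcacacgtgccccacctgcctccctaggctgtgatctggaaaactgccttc
Ccrl2: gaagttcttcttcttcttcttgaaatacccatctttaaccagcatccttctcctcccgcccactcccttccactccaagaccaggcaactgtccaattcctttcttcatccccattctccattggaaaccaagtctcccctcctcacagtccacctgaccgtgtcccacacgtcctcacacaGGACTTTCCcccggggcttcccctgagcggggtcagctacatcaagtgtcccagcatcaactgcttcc

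The Il6 window held an AP-1 match 249 bases and an NF-kB match 43 bases before the start. Tnfrsf13b, which encodes the B cell receptor TACI, held an NF-kB match 60 bases before its start, and so did Ccrl2, which encodes an atypical chemokine receptor, at 68 bases. Slc11a1 (the macrophage metal transporter NRAMP1), Phf11b and Ect2l held none of the 7 motifs in these letters. In all, 22 protein-coding starts lay under a gained and 20 under a lost region. An NF-kB match was in 5 of the 22 and 3 of the 20, against 4.9% of 21263 such windows in the table. AP-1 matches were in 3 of 22 and 1 of 20 (6.13% of all windows), RUNX in 2 and 2 (12.4%), STAT in 1 and 3 (6.58%), octamer in 2 and 1 (1.58%), T-box in 1 and 1 (0.997%) and ETS in none (3.79%). A match describes the letters only, and genes sharing a region are counted separately.

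The 6 control lists held 42520 to 53440 distinct intervals, and KO and WT lengths did not separate (50910 ± 3432 against 48095 ± 5464 intervals, SD, n = 3, exact permutation p = 0.7). The lists do not give read depth, which is unknown. The weakest of the 35110 kept peaks had a deposited −log10 q of 5.76 in WT control replicate 1 and 8.84 to 15.9 in the other 5, so the equal number of peaks stood for different stringencies. All 8 NK marker genes had regions (37 to 41 per library in WT and 36 to 37 in KO control). Zc3h12a itself, on chromosome 4 at 125118414 to 125127881 (minus strand), had a strong peak over the start in all 12 lists, with deposited folds of 91.5 to 126.5 in the control lists. A weak peak over its last 221 bases and the sequence beyond (125117670 to 125118634) was in 6 of 6 WT lists (folds of 2.6 to 4.3) and in 0 of 6 KO lists. That pattern occurred in 35 of the 81414 regions formed by the 12 full lists (0.043%). The sources used here do not give the deleted part of the gene, so this peak does not check the genotype.

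The genotypes were close to one another. The Jaccard index, the share of regions called in both libraries among those called in either, averaged 0.842 within WT control (3 pairs), 0.848 within KO control (3 pairs) and 0.814 between the genotypes (9 pairs, 0.794 to 0.829). The within minus between difference was 0.0309 (exact permutation test over the 6 libraries, two-sided, p = 0.1, the smallest possible). Near misses outnumbered the clean patterns. In 582 regions all 3 KO and 1 WT library had a call and in 711 only 2 KO libraries did, while 661 had 3 WT and 1 KO call and 888 only 2 WT calls.

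Most gained and lost regions had a weaker peak in at least 1 list of the other genotype, and a minority had one in all 3. Of the 523 gained regions 123 lacked even a weak deposited peak in the 3 WT control lists (23.5%, Wilson 95% interval 20.1 to 27.3, and 0.291% of all regions), 123 had one in 1 list, 157 in 2 and 120 in all 3. Of the 417 lost regions 40 had none in the 3 KO control lists (9.59%, 7.12 to 12.8, and 0.0948% of all regions), 75 had one in 1 list, 102 in 2 and 200 in all 3. The changed regions were weak peaks where they were present. The weakest of the 3 ranks had a median of 32057 for gained and 32817 for lost regions, and it lay in the last 10% of the kept list for 56% and 67.9% of them. In 8 gained and 1 lost regions all 3 peaks were among the 17555 strongest of their lists. The intervals here and below cover counting error only.

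Those 9 regions were the strongest changed ones, and they were chosen after their values were seen. The gained ones were inside Ppfibp2, Abr, Ece1, Taok3 and Stx6, over the start of Noxa1, and at 2 places beyond 50 kb from any gene, whose nearest genes are Akap13 (66.9 kb) and Il6 (91.7 kb). At the first of these 2 (chr7:75387559-75388632) the deposited folds were 31, 25.2 and 30.5 in the KO control lists, against 2.8 and 2.8 in WT control replicates 1 and 3 and no peak in replicate 2. The KO peaks were far up their lists there and the WT peaks near the bottom of theirs. The single lost one lay inside Snd1, a gene for a nuclease of RNA-processing complexes (chr6:28927788-28930037), with folds of 50.9, 25.6 and 27.2 in WT control, 3.6 and 5.1 in KO control replicates 1 and 3 and no peak in replicate 2. In stimulated WT cells it had folds of 39.5, 20.8 and 24.1, and in stimulated KO cells 1 peak of 4.5 in replicate 3. A fold is the authors' value of a peak over its own library's background. It is given to describe peaks, and folds of different libraries are not on a common scale. Where folds of the genotypes are set side by side below, as in saying that they overlap, this marks a limit of the calls. It is no measure of a height difference.

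Changed regions were narrower than shared ones and lay farther from gene ends. Median widths were 679 bp for gained, 734 bp for lost and 1446 bp for shared regions. Shared regions merge peaks of 6 libraries and changed ones mostly weak peaks of 3, so the rule itself favours wider shared regions. Its part in the width gap was not tested. Within 1 kb of a gene end lay 8.03% of gained (6 to 10.7), 8.39% of lost (6.1 to 11.4) and 38.9% of shared regions (38.3 to 39.5). Among regions up to 500 bp wide the 3 shares were 6.35%, 7.04% and 7.36%, with overlapping intervals, so the gap was not seen at that width. Between 500 and 1000 bp they were 7.87%, 5.26% and 13.4%, and above 1000 bp 10.9%, 17.2% and 46.3%. Inside genes lay 63.1% of gained and 54.9% of lost regions. Lost regions were more often beyond 50 kb from any protein-coding gene, 17% (13.7 to 20.9) against 7.46% (5.5 to 10) of gained ones and 7.71% of all regions. Annotated exons, introns and untranslated regions were not used here.

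The stimulated libraries, whose peaks did not enter the choice of regions, showed the same direction. The list length of KO stimulated replicate 1 did set the number of kept peaks, 35110. Of the 523 gained regions the 3 KO stimulated libraries called 64.2%, 73.4% and 73.4% and the 3 WT stimulated libraries 54.9%, 55.1% and 58.3%. Every KO library was above every WT library, and the means of 70.4% ± 5.3 and 56.1% ± 1.93 (SD, n = 3) differed by 14.3 percentage points (exact permutation test, two-sided, p = 0.1, the smallest possible). Lost regions ran the other way, with 22.1%, 17.3% and 18.5% called in KO and 32.1%, 31.7% and 30.7% in WT stimulated libraries (19.3% ± 2.5 against 31.5% ± 0.733, difference −12.2 points, exact permutation p = 0.1). Over all 42215 regions KO minus WT was −2.11 points (exact permutation p = 0.2), and KO stimulated replicate 1, whose whole list of 35110 peaks was kept, was the lowest of the 6. The difference for gained regions was 17.3 points without that library. The weakest kept peak had a −log10 q of 1.31, 4.6 and 13.2 in KO and 16.6, 17.3 and 27.1 in WT stimulated libraries. Each KO stimulated library was thus called at a lower stringency than each WT one. This holds for every count of stimulated calls below, and its part in the differences was not tested. When every deposited peak was used instead, which also redefines the gained regions, the difference for gained regions was 3.03 points (exact permutation p = 0.8). The value for lost regions under that setting is given below.

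**Figure D1:**
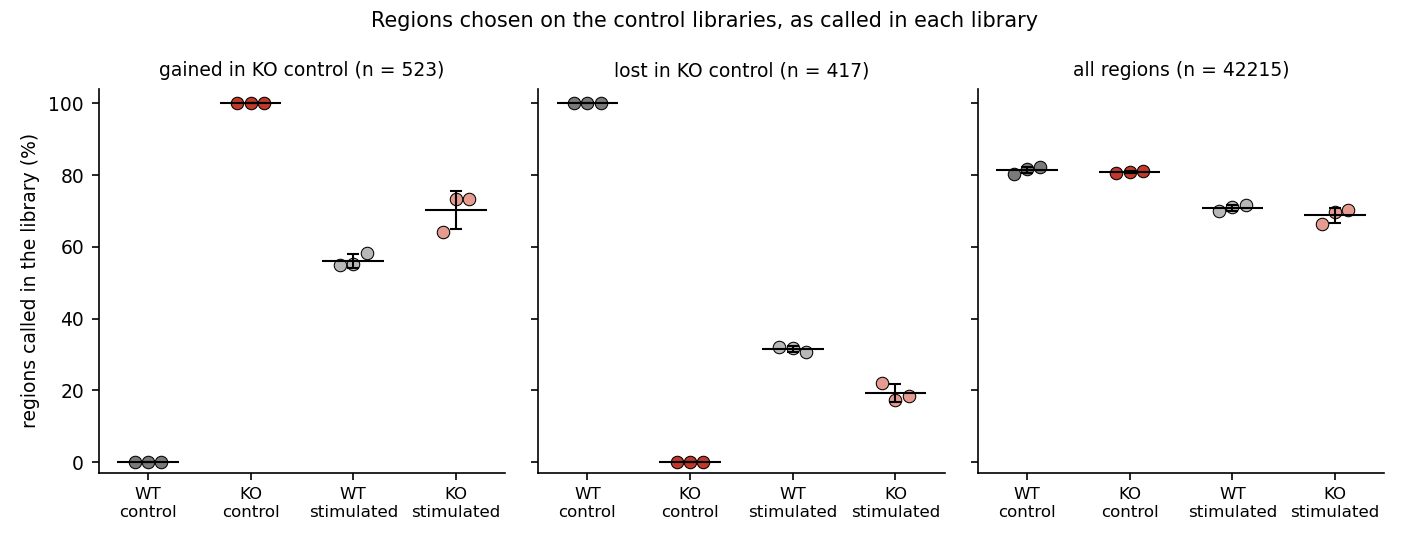
Percent of regions called in each of the 12 libraries (y axis) by genotype and treatment (x axis), for the 523 gained, 417 lost and all 42215 regions. Points are libraries, lines are means and bars 1 SD. The control groups stand at 0 or 100% in the first 2 panels because the regions were chosen on them, while in stimulated cells the KO points lie above WT for gained and below WT for lost regions.

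The same comparison was made where the other genotype had no control peak at all. Of the 123 gained regions without a WT control peak, 74% ± 7.76 were called in KO and 51.2% ± 1.41 in WT stimulated libraries, 22.8 points apart (exact permutation p = 0.1). Of the 40 lost regions without a KO control peak 7.5% ± 2.5 were called in KO and 25.8% ± 2.89 in WT stimulated libraries (−18.3 points, exact permutation p = 0.1). In the full stimulated lists, 32 of those 40 had no peak in any KO list, against 14 with none in any WT list, and none had a peak in all 3 KO lists. Of the 123 gained regions 9 had no peak in any KO list and 29 none in any WT list, but nearly as many had a peak in all 3 WT lists (77) as in all 3 KO lists (79). The first 2 KO stimulated lists are short (35110 and 42543 intervals against 55146 to 63128 in WT), and their part in these absences was not tested.

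Along the 2 edges where 1 genotype had no control call, the difference in stimulated cells was larger with more calls in the other. Regions with 0 WT calls differed by 5.32, 10.1 and 14.3 points with 1, 2 and 3 KO calls. Those with 0 KO calls differed by −2.76, −6.34 and −12.2 points with 1, 2 and 3 WT calls. Where both genotypes had calls the order held only in part. With 1 KO call the differences were 1.12, −3.46 and −8.22 points for 1, 2 and 3 WT calls. With 2 KO calls they were 5.11, −5.33 and −7.94 points, and with 3 KO calls 4.47, −4.08 and −2.69 points. With 2 WT calls the differences were −6.34, −3.46, −5.33 and −4.08 points for 0, 1, 2 and 3 KO calls. With 1 WT call they were 1.12, 5.11 and 4.47 points for 1, 2 and 3 KO calls. With 3 WT calls they were −8.22, −7.94 and −2.69 points. Regions called in all 6 control libraries differed by −2.69 points.

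**Figure D2:**
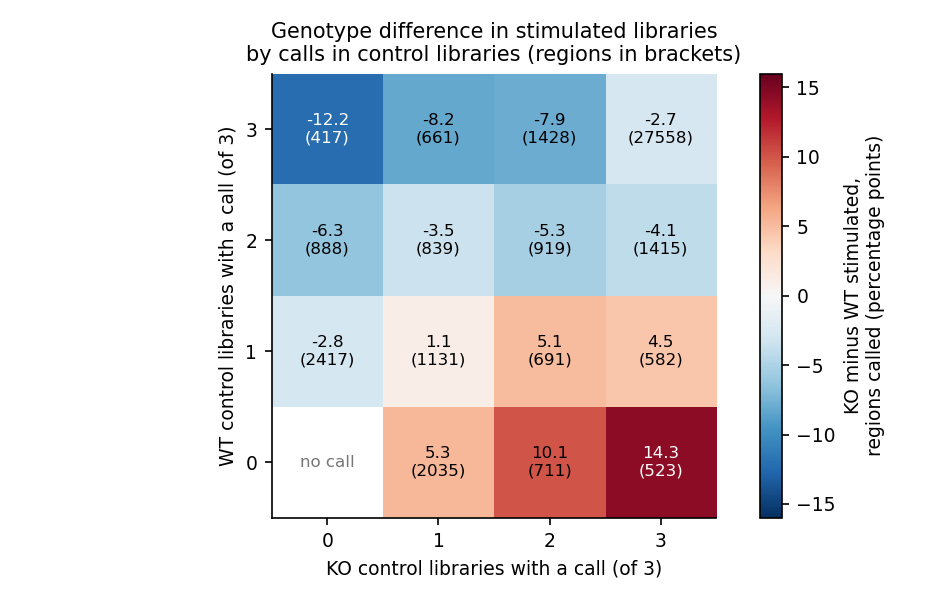
KO minus WT stimulated difference in the percent of regions called (colour and upper number, percentage points) for each combination of KO control calls (x axis, 0 to 3) and WT control calls (y axis, 0 to 3). The number of regions is in brackets, and the values run from −12.2 at the upper left to 14.3 at the lower right.

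By construction no WT control library called the gained regions. In stimulated cells 230 of the 523 (44%) were called in all 6 stimulated libraries, against 31 of 417 lost regions (7.43%), and 84 gained (16.1%) and 223 lost regions (53.5%) were called in none. Over all 42215 regions the shares were 55.7% in all 6 and 17% in none, so gained regions were below the background in the first and close to it in the second. Clean separation by genotype in both treatments was rare. Among gained regions 33 (6.31%, 4.53 to 8.73) were called in 3 of 3 KO and 0 of 3 WT stimulated libraries, a pattern of 0.628% of all regions, and 2 showed the reverse. Among lost regions 26 (6.24%, 4.29 to 8.98) were called in 0 of 3 KO and 3 of 3 WT stimulated libraries, a pattern of 0.966% of all regions, and none showed the reverse. A peak of any strength was absent from all 6 WT lists at 5 of the 33, and from all 6 KO lists at 3 of the 26.

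Irak3 encodes IRAK-M, an inhibitory member of the IRAK family that restrains MyD88 signalling (chromosome 10, 120141648 to 120202130, minus strand). Its 2 gained regions lay inside the gene, 9.13 and 11.5 kb from the nearer of its 2 annotated starts (distances from a start are to the nearest annotated one throughout). The first (chr10:120190823-120192471) had no deposited peak in any of the 6 WT lists, and folds of 13.8, 9.6 and 12.7 in KO control and 17.5, 12.7 and 29.7 in KO stimulated lists. The genotypes did not overlap there, in either treatment. The second (chr10:120188582-120190072) held weaker WT control peaks with folds of 2.8, 3.9 and 3.4 beside 11.5, 8.7 and 8.8 in KO control, and peaks in all 6 stimulated lists. Irak3 kept more gained than lost regions under all 6 alternative settings of region building, as did only Ece1, Ppfibp2 and Wwox among the 56 named genes.

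Il6 (chromosome 5, 30013114 to 30019975, plus strand) was the nearest gene of 2 regions within 50 kb, both gained. Other regions that close to it have another nearest gene. The one over the start (chr5:30012764-30014155), which covers the whole sequence shown above, had folds of 10.9, 12.4 and 12.1 in KO control and 1 weak peak of 4.4 in WT control replicate 3. After stimulation both genotypes had it, with 18.2, 15.1 and 18.6 in WT and 20.7, 20.3 and 32 in KO lists. The second, 1.25 kb after the start (chr5:30014366-30015017), had folds of 6.8, 5.8 and 6.1 in KO control and no peak in WT control. In stimulated cells it was called in 3 of 3 KO and 0 of 3 WT libraries, with folds of 3.2, 5.2 and 32 in KO lists and a peak of 5.2 outside the kept ones in WT replicate 3. That WT fold was not below those of KO replicates 1 and 2, whose lists are short, and in KO replicate 3 a single wide peak spanned both regions. The third gained region near this gene, 91.7 kb before it (chr5:29920083-29921406), had folds of 16.9, 14.5 and 16.6 in KO control and no peak in WT control. All 6 stimulated lists had it, at 37.8, 37 and 47.7 in WT and 31.8, 33.1 and 46.4 in KO.

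Il12rb2 encodes the signalling chain of the IL-12 receptor (chromosome 6, 67285986 to 67376293, minus strand) and had 2 gained regions before its start. The far one, 19.4 kb away (chr6:67395545-67396400), had folds of 8.9, 5.1 and 9.2 in KO control and none in WT control. It was called in 3 of 3 KO and 0 of 3 WT stimulated libraries, with folds of 5, 3.8 and 7.5 in KO lists and peaks of 3.6 and 5.6, outside the kept ones, in WT replicates 1 and 3. The folds of the genotypes thus overlapped. With calls that must cover 50% of a region, Il12rb2 had as many gained as lost regions. The near one, 1.65 kb away (chr6:67377836-67378395), had folds of 10.2, 7 and 12.1 in KO control, against 3.8 and 5.4 in WT control replicates 1 and 3. All 6 stimulated libraries called it. The region over the start of Il12rb2 was called in all 12 libraries.

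Irf2 encodes a transcription factor that restrains interferon responses and that NK cells need to mature (chromosome 8, 46739745 to 46847458, plus strand). Its lost region 42 kb inside the gene (chr8:46781704-46782721) had folds of 6.8, 11 and 9.7 in WT control and 7.2, 4.1 and 6.7 in WT stimulated lists, and no peak in any of the 6 KO lists. Only 1 of the 3 WT stimulated peaks was strong enough to be a call. The other lost region, 26.1 kb before the start (chr8:46712905-46713685), had folds of 5.8, 8.3 and 7.1 in WT control, with weaker KO control peaks of 3.4 and 4.3 in replicates 2 and 3. No stimulated list had it. With 17555 peaks per library the gene had 1 gained region more than lost ones, so the direction at Irf2 depends on the strength required.

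**Figure D3:**
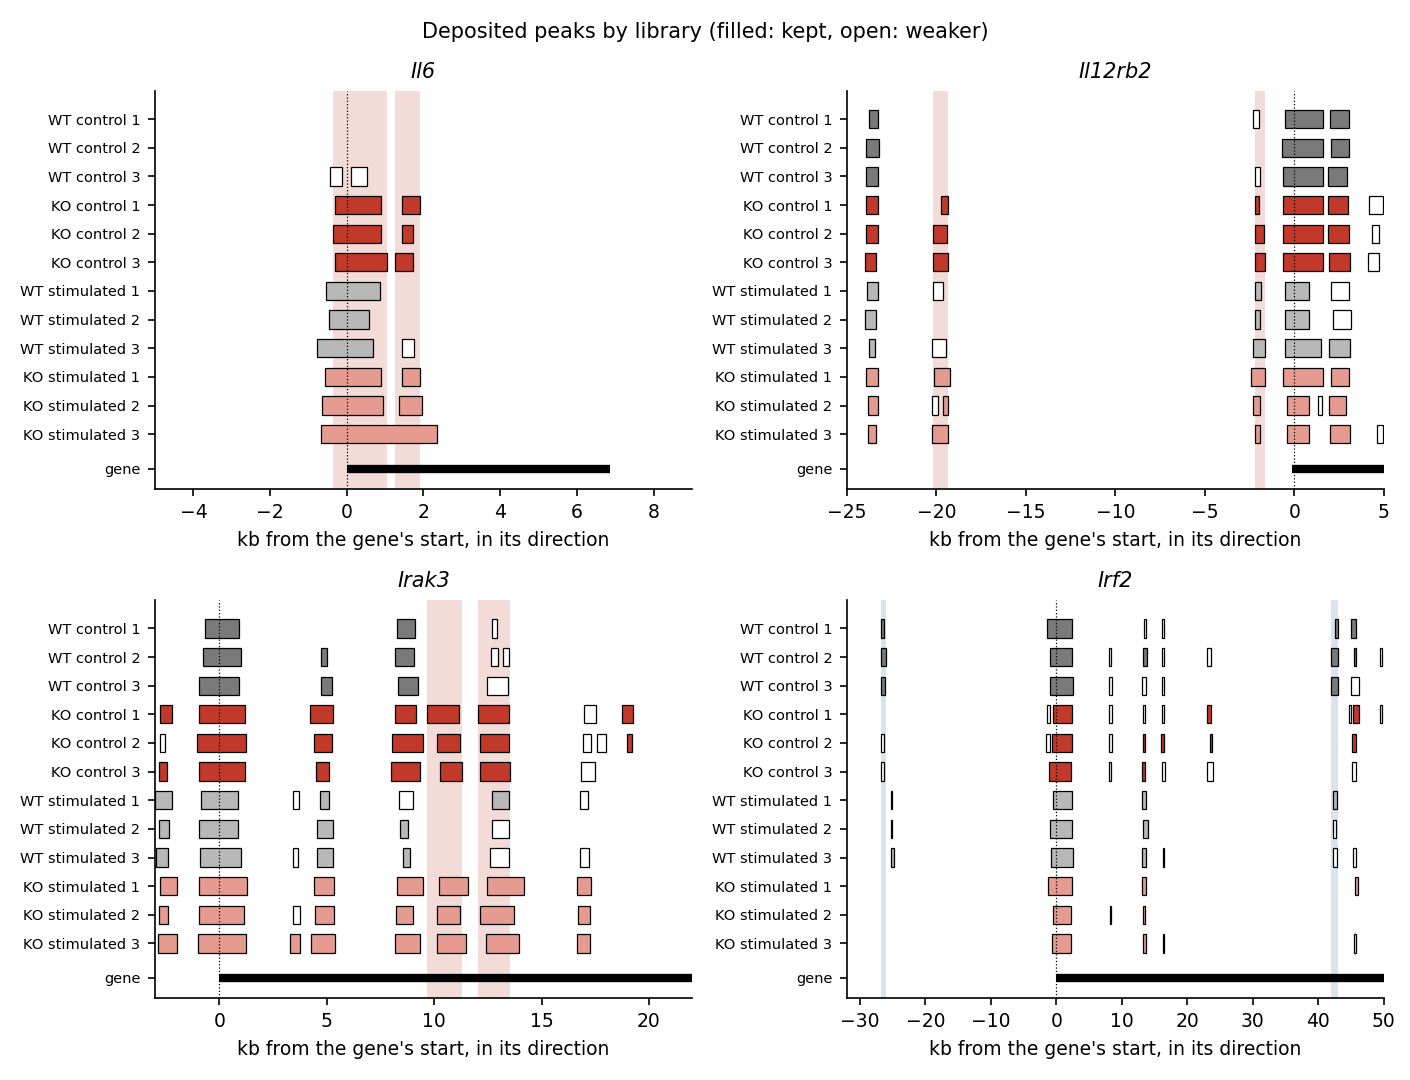
Deposited peaks of each library (rows) around the starts of Il6, Il12rb2, Irak3 and Irf2, with distance from the start in kb along the gene on the x axis. Filled boxes are among the 35110 strongest peaks of their library and open boxes are weaker ones, red bands are gained regions and blue bands lost regions, and the black bar is the gene. In Irak3, plotted from its outermost start, the left red band, and in Irf2 the right blue band, show that the genotype without a control peak had none after stimulation either.

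Regions gained at other genes of signalling and growth differed in how they appeared in stimulated cells. Ece1, which encodes the protease that matures endothelin, had the strongest gained region without a WT control peak (chr4:137879186-137880412), with folds of 18.5, 22.2 and 21.3 in KO control. Stimulated lists had it at 8.4, 6.1 and 6.9 in WT and 20.7, 16.3 and 28.4 in KO. Ern1, the sensor kinase IRE1 of the unfolded protein response, had 2 gained regions, neither with a WT control peak. The one 3.14 kb from its start was in all 6 stimulated lists, and the one at 43.8 kb was, apart from the KO control lists (12, 11.3 and 10.9), only in KO stimulated replicate 3 (5.8). Bcl2, the survival factor, had 2 gained regions 143.4 and 151.8 kb inside the gene. At the first, folds were 6.8, 6.8 and 9.2 in KO control with no WT control peak, and 3 of 3 KO and 0 of 3 WT stimulated libraries called it. The folds overlapped, at 10.3, 6.2 and 11.8 in KO and 6.9, 3.9 and 6.3 in WT stimulated lists. Cdk6, a kinase of cell-cycle entry, had 1 region at 39.6 kb with folds of 9.4, 7.5 and 8.6 in KO control and otherwise a single peak of 5.8 in KO stimulated replicate 3.

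The named transcription factor genes with gained regions lacking a WT control peak were Batf and Jdp2 of the AP-1 superfamily, Ikzf2 (Helios), Zeb2 (a factor of terminal NK maturation) and Stat4 (the STAT of IL-12 signalling). Batf had 2 gained regions 7.44 and 12.5 kb before its start, with folds of 8.1, 5.8 and 7.8, and of 7.5, 6.6 and 7.6, in KO control. The nearer one also had a weaker peak of 4.6 in WT control replicate 3. After stimulation the farther one was called in 2 of 3 KO and 0 of 3 WT libraries and the nearer one in none, and the 6 lists held peaks of at most 4.5. At the farther one the called KO peaks had folds of 3.6 and 3.8, and the WT peak of 4.5 in replicate 3 was not a call. Jdp2, 5.61 kb before its start, had folds of 8.9, 7.9 and 9.4 in KO control and was in all 6 stimulated lists. At Zeb2 the gained region lay 25.9 kb beyond the gene's end (chr2:44956337-44957574), with 6.5, 6.6 and 8.4 in KO control and 32.1 to 65.8 in the 6 stimulated lists, while a region inside the gene was lost. Stat4 had 5.7, 5.1 and 8.2 in KO control and otherwise only 7.3 in KO stimulated replicate 3. Tet2, which oxidises methylated DNA, Il10, the anti-inflammatory cytokine, and Tigit, an inhibitory receptor, each had 1 gained region without a WT control peak and with peaks in all 6 stimulated lists. The balance of gained minus lost regions at Stat4, Tet2 and Tigit came to 0 when calls had to cover 50% of a region.

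Some named genes had weaker WT peaks. The gained region nearest to Ifng, 49.1 kb beyond its end (chr10:118495011-118496143), had folds of 12.8, 12.2 and 11.5 in KO control against 3.5 in WT control replicate 2 and no peak in the other 2. All 6 stimulated lists had it, at 34.4, 31.9 and 47.9 in WT and 20, 20.3 and 33.5 in KO. It was 1 of 13 regions at Ifng, and the region over the gene was called in all 12 libraries. Zc3h12a had a gained region 17.4 kb before its start, with 7, 6.8 and 6.8 in KO control and 3.3, 4.5 and 4 in WT control. With all deposited peaks kept, the balance at Zc3h12a turned to 1 lost region, the weak WT peak at its end described above. Nfkbiz (6 regions) and Pou2f2 (9 regions) had no changed region.

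Among lost regions without a KO control peak, Slc35f3 and Slc6a20a, which encode members of solute carrier families, had peaks in the 3 WT control lists (7.1, 9.4 and 12.5 at Slc35f3, 6.1, 8.5 and 9.7 at Slc6a20a) and in none of the other 9. Peli2, which encodes a ubiquitin ligase of IRAK signalling, had 6.6, 8.7 and 11.7 in WT control, 3.8, 3.1 and 3 in WT stimulated and none in the 6 KO lists. The same division by genotype was seen at Smim15, Anks6, Mtmr7 and Tnfaip3. Tnfaip3 encodes A20, an inhibitor of NF-kB, and its lost region 46.8 kb beyond the gene had 4.8, 8.1 and 7.7 in WT control and 5.7, 5.5 and 7.1 in WT stimulated lists. Of the 13 such regions at named genes none had a peak in any KO stimulated list, and 9 had one in all 3 WT stimulated lists. Of the 30 gained counterparts 4 had no peak in any WT stimulated list and 21 had one in all 3. In the KO stimulated lists 1 of the 30 had none and 23 had one in all 3.

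**Figure D4:**
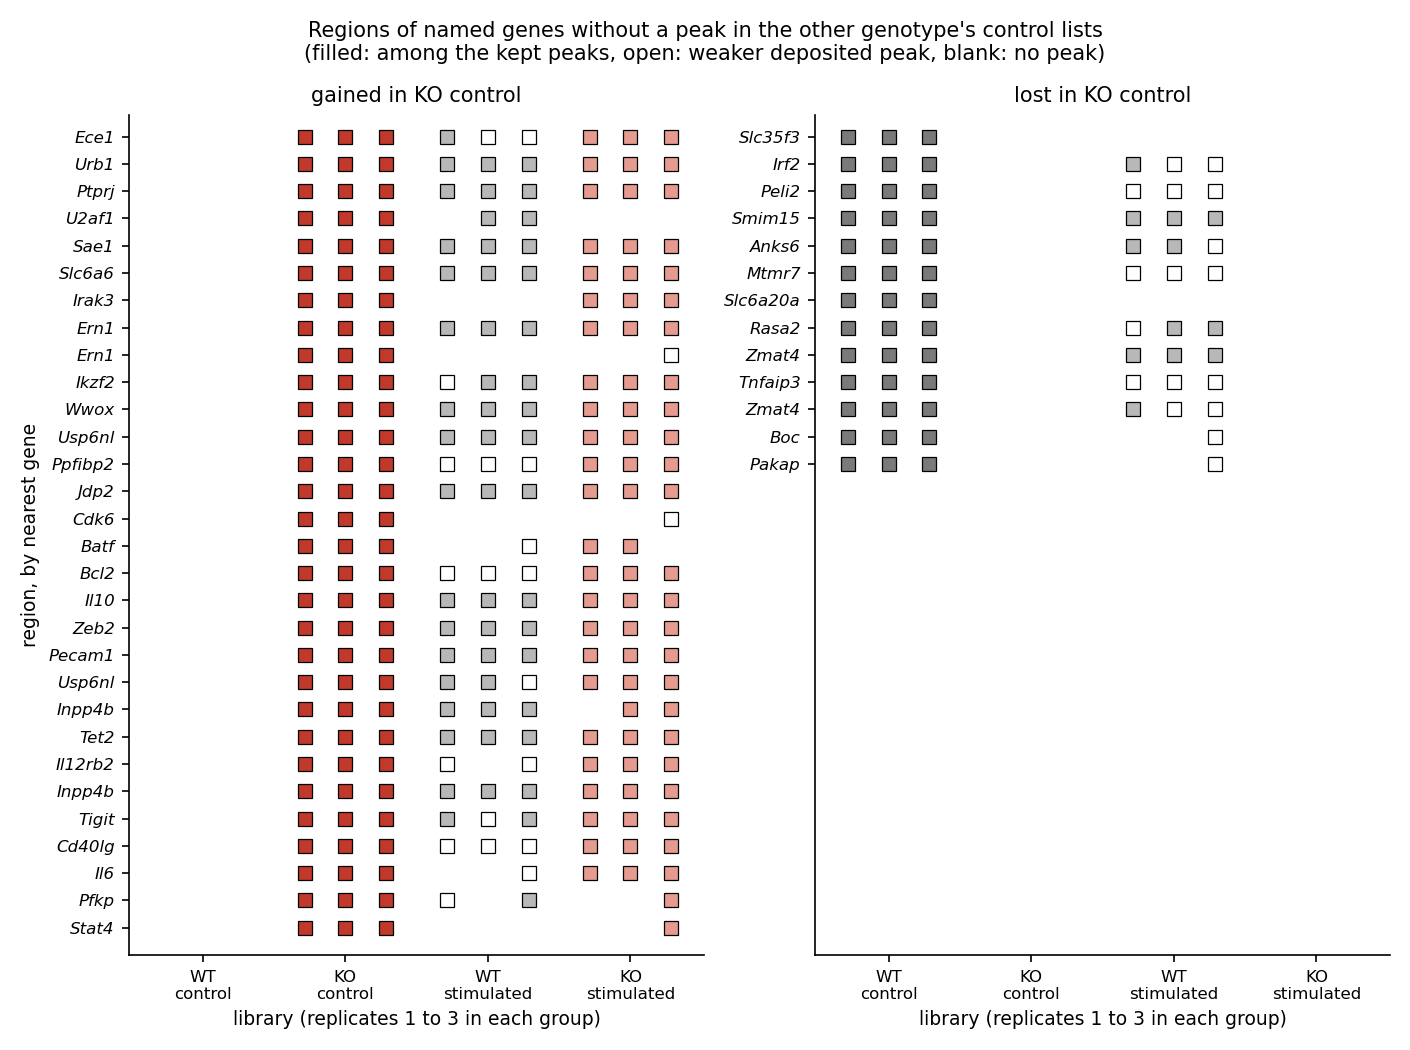
Regions of named genes (y axis, by nearest gene, strongest first) that had no peak in the other genotype's control lists, 30 gained and 13 lost, in the 12 libraries (x axis). A filled square is a peak among the 35110 strongest of its library, an open square a weaker deposited peak and a blank no peak, and the KO stimulated columns are blank for all 13 lost regions.

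By gene, 431 of the 14244 genes with regions had only gained regions, 315 only lost, and 14 both, with at most 3 changed in 1 direction. Among regions within 50 kb of a gene the background was 484 of 38962 gained (1.24%) and 346 lost (0.888%). The median balance of gained minus lost regions per gene was 0 over all genes and in each of the 22 lists. The list counts below are small, carry no test, and were made on the libraries that chose the regions.

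Genes reported as Regnase-1 targets had 5 gained and 0 lost of 101 regions (4.95% gained), at Il6 (2), Ifng, Ctla4 and Zc3h12a. WT control libraries called 84, 82 and 84 of these regions and KO control libraries 91, 91 and 88, without overlap. Over all regions near a gene the groups overlapped, at 31482, 31940 and 32171 in WT and 31570, 31743 and 31825 in KO control. The AP-1, T cell marker and myeloid marker lists were also without overlap and higher in KO. The interferon and metabolism lists were without overlap and higher in WT. With 3 libraries against 3, a share of 0.1 of the arrangements puts either group wholly above the other. Among 22 lists some absence of overlap can thus arise without a genotype difference. The gained and lost regions, which differ between these libraries by construction, are also part of the totals. In stimulated cells the target list ran the other way, 84.7 ± 2.08 in WT and 82.3 ± 2.89 in KO (SD, n = 3), with overlapping spreads. All regions near a gene were also called less in KO stimulated libraries, 27733 ± 349 in WT and 26979 ± 757 in KO. The AP-1, BATF and BACH list had 4 gained and 0 lost of 99 regions (4.04%), at Batf (2), Jdp2 and Bach2, with 74, 75 and 72 called in WT and 81, 80 and 82 in KO control libraries. Its stimulated values were 77 ± 1 in WT and 75.7 ± 2.52 in KO. Cytokines and chemokines had 5 gained (2 at Il6, and Ifng, Il10 and Xcl1) and 2 lost (Fasl and Csf2) of 90 regions, and the library totals overlapped (75, 75 and 80 in WT, 79, 79 and 77 in KO control). Il6 and Ifng are on 2 of these lists.

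Survival, cell-cycle and MYC genes had 6 gained (2 each at Bcl2 and Cdk6, and Bcl2l11 and Pim1) and 1 lost (Mxd1, a MYC antagonist) of 149 regions, 4.03% and 0.671%. Cytokine receptors and JAK-STAT genes had 4 gained (2 at Il12rb2, and Stat4 and Jak2) and 1 lost (Il10rb) of 180. NK transcription factors had 7 gained and 3 lost of 366, chromatin regulators 3 and 1 of 138, and RNA-decay genes 2 and 0 of 66 (Zc3h12a and Arid5a). NF-kB pathway genes had 2 gained, both at Irak3, and 2 lost (Irak2 and Tnfaip3) of 130.

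Lists with more lost than gained regions were fewer. Interferon-stimulated and IRF genes had 0 gained and 2 lost of 71, both at Irf2, with 62, 65 and 61 called in WT and 56, 59 and 57 in KO control libraries. Homing and maturation genes had 0 and 3 of 126 (Itgam and Itgb1 among them), TGF-beta genes 0 and 2 of 95 (Tgfbr2 and Tgfbr3) and checkpoint genes 2 (Ctla4 and Tigit) and 3 of 99 (Pdcd1, Tnfrsf18 and Vsir). Each lost region of the last 3 lists kept a weaker peak in at least 1 KO control list. Metabolism genes had 3 and 3 of 135, with 109, 112 and 111 called in WT against 108, 106 and 107 in KO control libraries. NK receptors had 1 and 1 of 141 (both at Syk), with 123, 119 and 109 called in WT against 106, 106 and 109 in KO control libraries. Those groups met at 109, and the difference of −10 regions between the means was the largest of the lists in size. Cytotoxic granule genes had 1 and 1 of 55 (both at Rab27a), and ubiquitous genes 0 and 0 of 51.

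**Figure D5:**
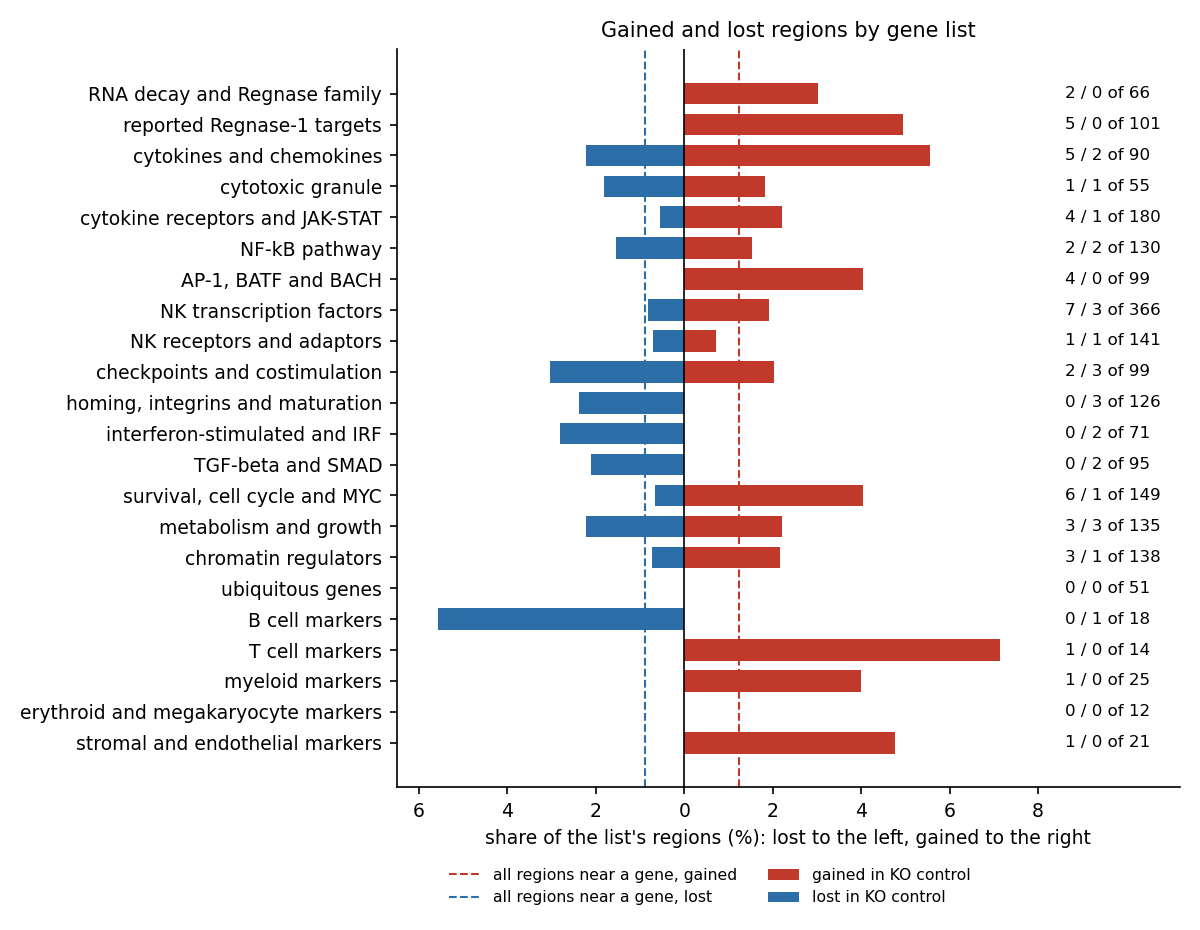
Percent of each list's regions (x axis) gained to the right and lost to the left, by list (y axis), with gained / lost of all regions at the right edge. Dashed lines mark the shares over all regions near a gene, 1.24% gained and 0.888% lost, and the list shares rest on 0 to 7 regions each.

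Markers of other cell types were measured beside these lists. T cell markers had 10, 11 and 11 called regions in WT and 13, 13 and 14 in KO control libraries, and myeloid markers 19, 19 and 20 against 24, 21 and 23, so both were higher in every KO control library, as the reported target and AP-1 lists were. In stimulated libraries T cell markers stood at 8.33 ± 0.577 in WT and 9.67 ± 0.577 in KO, and myeloid markers at 17.3 ± 0.577 and 17.3 ± 1.15. The gained T cell region was at Cd6 (chr19:10800801-10801851) and the gained myeloid one at Adgre1, and both were in all 6 stimulated lists. The start of H2-Aa, an MHC class II gene of antigen-presenting cells picked after its values were seen, was also gained, with 7, 7.5 and 6.3 in KO control and 2.6 in WT control replicate 3. Of 12 T cell marker genes 7 had a region, among them Cd3e, Cd3d, Cd5, Trat1 and Lat with calls in every control library, and Cd3g, Cd4, Cd8a, Cd8b1 and Foxp3 had none. Of 14 myeloid marker genes 9 had a region, among them Cd14, Cebpa, Cebpb, Itgax, Fcgr1, Csf3r, S100a9 and Spi1 with calls in every control library, and Lyz2, Csf1r, S100a8, Mpo and Siglech had none. A region may lie up to 50 kb away, and the starts of Cd3e, Cd3d, Trat1, Csf3r and S100a9 were covered in 0 control libraries. Of 9 T cell starts in the promoter table, 1 to 2 were covered per WT and 2 per KO control library. Of 10 myeloid starts 4 were covered in each control library. Of 7 NK starts, 7 were covered per WT and 6 to 7 per KO control library. B cell markers had 9 to 12 regions in WT and 8 to 12 in KO control libraries, with 1 lost at Ebf1 and none at Cd79a, Cd79b and Ms4a1. Erythroid and megakaryocyte markers had 10 to 12 and 9 to 10, and stromal and endothelial markers 9 to 14 and 11 to 16, with 1 gained at Pecam1. NK markers had 37 to 41 regions in WT and 36 to 37 in KO control libraries. The part of other cells in the gained regions was not tested, and in bulk chromatin more cells of a type cannot be told apart from more open chromatin per cell.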

How the data were processed

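ATAC-seq was done on the same number of splenic NK cells per library with a commercial kit, per the labels' protocols. The authors deposited 1 peak list per library. The submitters' processing notes name mm10, MACS2 2.1.1.20160309, deepTools 3.4.2, SAMtools 1.15.1, Bowtie2 2.3.4.1, cutadapt 4.1 and FastQC 0.11.9. The deposited fold is a ratio of a peak's pileup to its own library's background, and each peak has its own deposited −log10 p-value and −log10 q-value. The deposited score column was not used, and the deposited summit offset (other) gave summit windows only. Replicates were not pooled, since each list is 1 library's.

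Summits in 1 interval on chromosomes 1 to 19, X and Y were taken as 1 distinct interval with its strongest summit. The 35110 strongest by −log10 q (the length of the shortest of the 12 lists) were kept per library and merged over the 6 control libraries at 1 bp overlap. Ranking favours no library by list length but not by stringency, and depth is unknown. Regions went to the nearest of 21887 protein-coding gene bodies within 50 kb (RefSeq, GRCm38.p6, matched by symbol), and 17492 of these genes had a start in the promoter table. Shares carry Wilson 95% intervals. Library values were compared by exact two-sided permutation tests (Python 3.11.15, numpy 2.4.6, pandas 2.3.3, scipy 1.17.1), in which 3 against 3 allows 20 arrangements and no p under 0.1. The region code was tested on simulated lists.

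Genes were named by this rule: Zc3h12a, Ifng, Pou2f2 and Nfkbiz; the 12 genes with the largest balance of gained over lost regions and the 12 with the reverse, at least 2; list genes with a changed region lacking any peak in the other genotype's control lists; and the nearest genes of the 10 strongest such regions in each direction. Members and lists were chosen with earlier results of these data known. Other genes appear as members of a list count, or as named where their values were seen first. Zfp683, Mx1, Mx2 and Ighm of the lists were not in the gene table. Alternatives were all deposited peaks, 17555 peaks, ranking by fold, calls covering 50% of a region, 500 bp summit windows, merging over 12 libraries, 20 kb flanks, leaving out each library, and a replicate block.

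Some genes of the lists are counted but not reported here by name.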

Additional observations from a re-analysis of the deposited data

Results flagged for a closer look

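Of the 523 regions gained in KO control cells, 2 showed the opposite pattern in stimulated cells, called in 0 of 3 KO and 3 of 3 WT libraries (a KO minus WT difference of −3 libraries at each), and the difference between the treatments was not tested. One lies 17 kb beyond the end of Src, a tyrosine kinase gene (chr2:157488842-157489165), with folds of 5.7, 5.1 and 7.4 in KO control, 6.1 in WT control replicate 3, and 10.5, 8.5 and 10.4 in WT stimulated lists, and no peak in KO stimulated lists. The other lies 2.44 kb beyond the end of Ceacam9 (chr7:16728556-16729174), with 7, 5.8 and 6.8 in KO control and 8.1, 8.5 and 8.8 in WT stimulated lists. It had weaker peaks of 5.1 and 5.6 in WT control replicates 2 and 3 and of 3.6 and 4.5 in KO stimulated replicates 2 and 3.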

How the results depend on the processing

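The direction of the Jaccard difference and of both stimulated differences was the same under every alternative run. Ranking by fold gave the main values throughout, but fold and −log10 q order the peaks of a library alike, so it was no separate check. With 17555 peaks per library 229 regions were gained and 245 lost, and 0.873% and 0% of them lacked a peak in the other genotype. With all deposited peaks those shares are 100% by construction (670 gained, 315 lost). Calls covering 50% of a region gave 707 lost regions, with shares of 18.2% (gained) and 4.38% (lost). Leaving out 1 control library requires 2 calls instead of 3 and gave 672 to 798 gained and 605 to 817 lost regions, the highest without KO control replicate 2 and WT control replicate 1. The lost count was 711, 629, 673 and 636 without WT control replicates 3 and 2 and KO control replicates 2 and 3. The share of gained regions without a WT peak ran from 18.2% to 38.8% (highest without WT control replicate 3), and of lost regions without a KO peak from 7.88% to 17.3% (highest without KO control replicate 3, then 15.9% without KO control replicate 1). Over all single libraries left out, the stimulated difference ran from 9.9 to 17.3 points for gained and from −13.6 to −8.16 for lost regions, and the Jaccard difference from 0.0282 to 0.0354. With all deposited peaks the stimulated difference was 3.03 points for gained (exact permutation p = 0.8) and −29.6 for lost regions (exact permutation p = 0.1).

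Same-numbered WT and KO control libraries did not deviate together (correlations of 0.0069, −0.005 and 0.0089 over 14657 regions). With 3 libraries per group such correlations cannot decide whether the numbers pair them, and the labels do not tell. With a replicate block the differences remain 0.0309, 14.3 and −12.2, each with an exact permutation p = 0.25, the smallest 3 pairs allow. Of the 56 named genes 34 had a gained and 19 a lost balance. With 17555 peaks 4 and 2 of them kept it, Irf2 reversed to 1, and the rest came to 0. With calls covering 50% of a region 29 and 19 kept it, and Il12rb2, Stat4, Tet2, Tigit and Pecam1 came to 0. With all deposited peaks 28 and 12 kept it and Zc3h12a reversed to −1. With 20 kb flanks the reported target list had 4 gained and 0 lost regions and the AP-1 list 4 and 0. Depth limits what absence means: a region without a deposited peak may still hold fragments under the authors' threshold.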

Other observations

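At the interval between Zeb2 and Gtdc1, regions at chr2:44952516-44953252 and chr2:44956337-44957574 were both gained, and all 6 stimulated lists held peaks at both. Gained regions were 0.889% to 1.57% of all regions on each autosome, lost regions 0.653% to 1.36%. Besides the region inside Irak3, the gained regions called in all 6 KO libraries and with no peak in any WT list lay inside Phtf2, Afap1, Hydin and Siae. The lost regions called in all 6 WT libraries and with no peak in any KO list lay inside Zmat4, before Smim15, and on chromosome 1 (starting at 94456571) beyond 50 kb from any gene. These genes were named after their values were seen.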
